A study of Mus musculus with 3 samples.

Results

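Chemokines and chemokine receptors were examined in single cells of mouse gallbladder, by cell type and by library. The set held every gene whose symbol is Ccl, Cxcl, Xcl or Cx3cl (ligands), or Ccr, Cxcr, Xcr or Cx3cr (receptors), followed by a number and an optional a or b, with at least 20 unique molecular identifiers (UMIs, the count of captured transcripts) over all barcodes. Of 60 rows of this form, which carry 56 symbols, 51 reached that minimum, 33 ligands and 18 receptors, among 17453 genes that reached it and 31053 genes in all. Just inside the minimum stood Cxcr1 with 24 UMIs and Ccr8 with 26. Of the 9 rows outside it, Cxcl15 held 4 UMIs and the other 8, among them Ccl26, Ccl21b and Ccl27b, held 0. Some of those 8 are near-identical copies of Ccl19, Ccl21a and Ccl27a, so the levels of these 3 genes depend on how reads shared by copies were counted, which is not given in the sources used here.

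Chemokines are small secreted proteins that bind G protein-coupled receptors on leukocytes and direct their migration. CXC ligands of CXCR2 attract neutrophils, CC ligands of receptors such as CCR1 and CCR2 attract monocytes, macrophages and lymphocytes, and ligands such as CXCL12 and CCL21 are made without an inflammatory stimulus and position cells in tissue and at lymphatic vessels. In the gallbladder, a bile store lined by columnar epithelium, leukocyte entry is a feature of cholecystitis.

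The labels describe 3 groups of male C57BL/6 mice, all dosed by oral gavage: vehicle for 6 weeks, nanoplastics for 3 weeks (named acute exposure) and nanoplastics for 6 weeks (chronic exposure). Each group was 1 library of 10 pooled gallbladders that were minced and digested with trypsin, so no group has a replicate and animals cannot be told apart within it. The animals' age and the polymer, size and dose of the particles are not given in the sources used here. The barcodes carry a library number, 1, 2 or 3, that neither the files nor the labels tie to a group. Exposed and control gallbladders were therefore not compared, no test was made, and the values of libraries 1, 2 and 3 are shown side by side without a mean. A difference between libraries below is a difference between 3 pools and cannot be told apart from dissociation, capture or depth.

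The libraries held 72943584, 121349261 and 58172348 UMIs over 5643, 11827 and 10230 barcodes, and 24993 cells were kept. Cells were sorted into 16 classes by marker genes that include no chemokine or receptor, and 22723 cells (90.9%) entered 1 class; class names end in -like because they rest on 9 to 12 markers each, at least 8 of them seen in 20% or more of a class's cells. Library 3 was the shallowest in most classes, with a median of 868.5 UMIs in neutrophil-like cells against 2134 and 1012 in libraries 1 and 2. Library 1 also held 90 cells with rod photoreceptor markers, which were left out, and 136 of the 140 cells of a cluster with microglia markers, 120 of which passed the macrophage gate; the library 1 values of macrophage-like cells are given below with and without that cluster. Without it 9 members in place of 10 passed the 4-fold rule used below, Cxcr4 being the one lost. Pairs of libraries shared 15, 17 and 22 barcode sequences. Some classes were drawn from different clusters in different libraries: neutrophil-like cells lay in cluster 7 in libraries 1 and 2 (99.2% and 99.8%) and in cluster 17 in library 3 (96.0%), and the most frequent cluster of epithelial-like cells was 1, 0 and 5 by library (44.5%, 41.4% and 61.3% of them) and that of fibroblast-like cells 4, 13 and 3 (40.9%, 49.7% and 29.2%). In library 3 cluster 16 held 53.2% of smooth muscle-like cells and 34 of 68 pericyte-like cells; the most frequent clusters of these classes in libraries 1 and 2 were 11 and 22.

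Levels are CPM, a gene's count among the UMIs summed over the cells of a class, scaled to 1000000 UMIs. Each captured transcript end counts once, so values were not divided by gene length. Intervals in parentheses are exact Poisson 95% intervals and cover counting error only, not the spread between animals or cells. A library's value is given where it held at least 20 cells of the class, values by library stand in the order 1, 2 and 3, and 15 classes with at least 100000 UMIs were ranked. CPM is a share of a class's RNA, so fewer expressing cells in a class and less RNA per cell cannot be told apart in it.

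Most members had 1 class where they were highest across libraries. The same class was highest in the pooled data and in each library with a value, for at least 2 libraries, in 22 of 33 ligands and 13 of 18 receptors, against 31.2% of all 17453 genes. The highest class exceeded the next by at least 4-fold, pooled and in each library with a value, in 10 of 51 members against 4.25% of all genes, and 8.27% of the 4607 genes that reached 100 CPM somewhere. These 10 were the ligands Ccl21a (lymphatic endothelial-like), Ccl7, Ccl12 and Cxcl13 (macrophage-like), Cxcl5 (epithelial-like) and Ccl17 (type 2 dendritic-like), and the receptors Cxcr2 and Cxcr4 (neutrophil-like), Xcr1 (type 1 dendritic-like) and Ccr10 (plasma-like). The median ratio of highest to next class was 2.83 over the members and 1.31 over all genes, and the median level in the highest class was 328 CPM and 34.6 CPM. In 10 members, 5 ligands and 5 receptors, the intervals of both leading classes overlapped. The share of all genes with such an overlap was not computed. Summed over the 33 ligands, macrophage-like cells stood at 18076 CPM and neutrophil-like cells at 17273 CPM, and Cxcl2 made up 86.0% of the neutrophil-like sum. The receptor sum was highest in neutrophil-like cells at 3474 CPM and lowest in epithelial-like cells at 8.13 CPM.

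**Figure D1:**
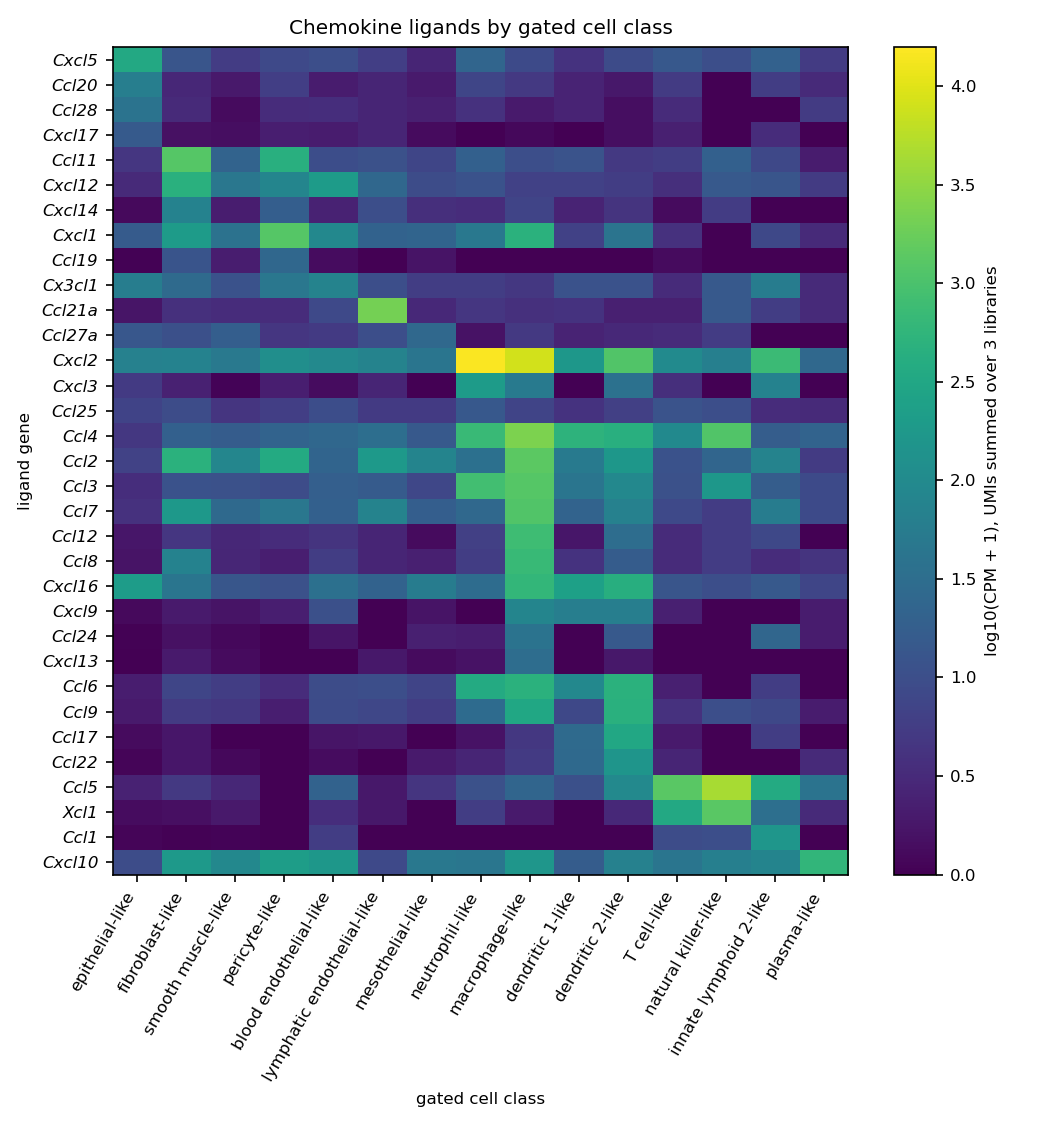
Heat map of the 33 ligands (rows) in the 15 ranked classes (columns), coloured by log10(CPM + 1) of UMIs summed over the 3 libraries. The brightest cell is Cxcl2 in neutrophil-like cells at 14848 CPM, and Ccl21a, Cxcl5 and Ccl12 each show 1 bright column.

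The ligands of CXCR2, the receptor that draws neutrophils out of blood, came from different classes. Cxcl2 was highest in neutrophil-like cells at 14848 CPM (14665 to 15033), with 19951, 11933 and 6916 CPM by library. Macrophage-like cells followed at 8183 CPM, with 9354, 8849 and 2407 CPM. Library 3 was lowest in both classes, and the neutrophil-like class stood above the macrophage-like class in each library. Epithelial-like cells held 70.1 CPM of Cxcl2, and at 1000 UMIs per cell 4.66% of them had a UMI of it against 93.9% of neutrophil-like cells; free RNA was not removed. Cxcl3, a close relative of Cxcl2, was also highest in neutrophil-like cells, at 199 CPM, with 194, 253 and 77.1 CPM by library. Cxcl1, in contrast, was a ligand of pericyte-like cells, the contractile cells around small vessels, at 1226 CPM (1151 to 1305), with 1548, 835 and 611 CPM by library. Macrophage-like cells held 482 CPM of Cxcl1 and fibroblast-like cells 200.4 CPM. Among blood endothelial-like cells, Cxcl1 read 264 CPM in a sub-gate of venous markers (529, 86.8 and 35.9 CPM by library) and 50.4 CPM in a sub-gate of capillary markers. Library 1 had 28 venous-marker cells. Of its 161 Cxcl1 UMIs in all blood endothelial-like cells, 32.9% lay in 1 cell. Cxcl5 was an epithelial gene: 99.2% of its UMIs in gated cells lay in epithelial-like cells, at 344 CPM (341 to 347), with 427, 396 and 60.6 CPM by library. Library 3 was thus far below the other 2 for Cxcl5, where 61.3% of these cells lay in cluster 5.

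The 4 genes lie within 147 kb of chromosome 5 (90759360 to 90905938, GRCm38), in the order Cxcl5, Cxcl3, Cxcl1 and Cxcl2. The promoters of Cxcl1, Cxcl2 and Cxcl3 are shown because they hold the same match to the NF-kappaB consensus while the genes were highest in 2 different classes, and that of Ccl20, an epithelial ligand described below, is set beside them. Windows end at the RefSeq start site of assembly GRCm38.p6 and are read 5′ to 3′, with matches on either strand in capitals.
Cxcl1: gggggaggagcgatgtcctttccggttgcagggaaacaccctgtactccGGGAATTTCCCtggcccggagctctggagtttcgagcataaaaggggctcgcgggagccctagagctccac
Cxcl2: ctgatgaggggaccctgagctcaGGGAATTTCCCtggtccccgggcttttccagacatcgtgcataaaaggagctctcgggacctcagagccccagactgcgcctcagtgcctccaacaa
Cxcl3: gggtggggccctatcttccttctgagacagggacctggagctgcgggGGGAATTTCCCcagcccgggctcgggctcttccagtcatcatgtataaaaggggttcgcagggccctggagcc
Ccl20: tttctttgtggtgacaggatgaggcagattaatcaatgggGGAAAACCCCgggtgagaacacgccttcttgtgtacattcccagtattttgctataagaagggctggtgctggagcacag
These are chr5:90891125-90891244, chr5:90903779-90903898, chr5:90785981-90786100 and chr1:83116646-83116765, all on the plus strand. In Cxcl1, Cxcl2 and Cxcl3 the capitals are overlapping matches of both strands, which begin 71, 97 and 73 bases before the start; the match of Ccl20 begins 80 bases before it. RefSeq promoters were found for 38 of the 51 members, 42 windows of 250 bases before to 50 bases after the start. The consensus occurred in the windows of 11 of the 38 genes and in 8.46% of all 32851 promoters. A match is a description of the letters, and no binding was measured.

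**Figure D2:**
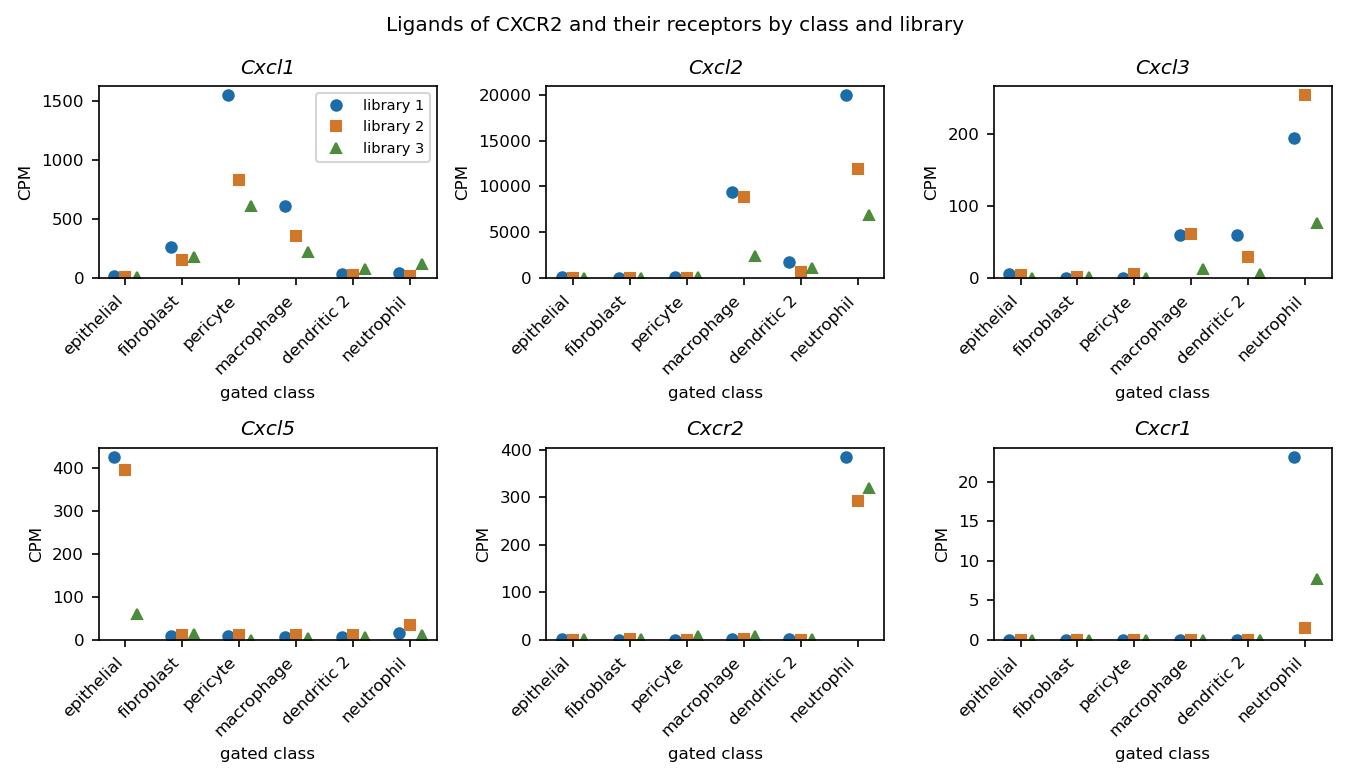
CPM of Cxcl1, Cxcl2, Cxcl3, Cxcl5, Cxcr2 and Cxcr1 (panels, linear axes from 0) in 6 gated classes, with 1 point for each library. Cxcl5 stands out in epithelial-like cells, Cxcl1 in pericyte-like cells, and Cxcl2, Cxcl3, Cxcr2 and Cxcr1 in neutrophil-like cells.

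Macrophage-like cells were the highest class for 10 ligands, most of them CC chemokines that attract monocytes and T cells. Ccl4 was the most abundant of these at 2331 CPM (2284 to 2379), with 2137, 2826 and 2166 CPM by library, and its neighbour Ccl3, another CCR1 ligand, stood at 1249 CPM, with 1238, 1507 and 815 CPM. In library 3 neutrophil-like cells exceeded macrophage-like cells for Ccl3, at 1152 CPM. Of the CCR2 ligands, Ccl2, the main attractant of inflammatory monocytes, read 1365 CPM (1329 to 1402), with 1238, 1385 and 1823 CPM. Ccl7 read 1164 CPM, with 1125, 1076 and 1477 CPM, Ccl12 read 781 CPM, with 864, 812 and 400.1 CPM, and Ccl8 read 675 CPM, with 928, 291 and 405 CPM. The libraries did not share an order: library 3 was highest for Ccl2 and Ccl7 and lowest for Ccl12. Ccl2 was also a fibroblast gene, at 479 CPM in fibroblast-like cells, with 800.4, 779 and 89.2 CPM by library, so library 3 was lowest there while it was highest in macrophage-like cells. In the fibroblast-like cells of library 3 the 12 macrophage markers summed to 151 CPM against 44.9 and 44.3 CPM in libraries 1 and 2. None of them was at 0, and 11 of 12 were highest in library 3. Among the 11 classes other than macrophage-like with a value in each library, this sum was highest in library 3 in 8. The part of these markers in the Ccl2 values was not tested.

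Cxcl16, a membrane-bound ligand of CXCR6, was shared between macrophage-like cells at 614 CPM (652, 662 and 376 CPM by library), type 2 dendritic-like cells at 424 CPM and epithelial-like cells at 205 CPM (229, 218 and 131 CPM). Because epithelial-like cells are many and deep, macrophage-like cells held 5.86% of its UMIs. Lower macrophage-like ligands were the CXCR3 ligand Cxcl9 at 81.8 CPM, Ccl24 at 39.1 CPM and the B cell attractant Cxcl13 at 30.35 CPM. Cxcl9 had no stable highest class: it was macrophage-like in library 1, type 2 dendritic-like in library 2 and type 1 dendritic-like in library 3, and 43.8% of its macrophage-like UMIs in library 1 came from 1 cell. Without library 1, type 1 dendritic-like cells led at 93.1 CPM and macrophage-like cells held 44.4 CPM. Without the microglia-marker cluster the macrophage-like values of library 1 were 1218 CPM for Ccl2, 1240.4 CPM for Ccl3, 2136 CPM for Ccl4 and 1152 CPM for Ccl7. For Ccl8 they were 957 CPM, for Ccl12 862 CPM, for Cxcl2 9656 CPM, for Cxcl9 112 CPM and for Cxcl16 664 CPM. The pooled levels of these ligands stayed within their counting intervals, except that of Cxcl2 in this class, which was not recomputed.

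Lymphoid classes held a separate set of ligands. Ccl5, a CCR1 ligand of cytotoxic lymphocytes, was highest in natural killer-like cells at 4419 CPM (4146 to 4706), with 6031 and 1610 CPM from libraries 2 and 3; library 1 had 14 such cells and no value of its own. T cell-like cells held 1341 CPM, with 1318, 1471 and 569 CPM, and 7299 CPM in a sub-gate of CD8 T cell markers (67 cells). Xcl1, which attracts XCR1-bearing dendritic cells, followed the same classes: 1311 CPM in natural killer-like cells (1997 and 191 CPM from libraries 2 and 3) and 336 CPM in T cell-like cells (314, 398 and 20.3 CPM). Library 3 was lowest for both genes in both classes. It held 41 Xcl1 UMIs over all its barcodes, so its Xcl1 values rest on few UMIs. Without library 2 natural killer-like cells were too few to be ranked. T cell-like cells then led for both, at 1181 CPM for Ccl5 and 260.4 CPM for Xcl1. Natural killer-like cells lay mostly in cluster 9 (100%, 95.7% and 100% by library), which also held most T cell-like cells (69.9%, 65.8% and 63.4%). The 11 T cell markers summed to 1520 CPM in natural killer-like cells, none at 0, and to 4822 CPM in T cell-like cells. With clusters in place of gates no cluster was named natural killer, and T cells led at 1467 CPM for Ccl5 and 395 CPM for Xcl1. Ccl1, a CCR8 ligand, belonged to type 2 innate lymphoid-like cells, tissue lymphocytes that release type 2 cytokines, at 158 CPM (122 to 200.4), with 92.7, 309 and 16.7 CPM by library; the last value is 1 UMI. In library 2, 46 UMIs in 12 cells carried the Ccl1 value.

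Dendritic-like cells divided by ligand as well. Type 2 dendritic-like cells, which carry Cd209a and Mgl2, were the highest class for both CCR4 ligands. Ccl17 stood there at 328 CPM (312 to 346), with 518, 278 and 95.2 CPM by library, and Ccl22 at 157 CPM, with 111, 118 and 328 CPM. The 2 genes share a receptor and a locus on chromosome 8, and in library 3 Ccl17 was lowest and Ccl22 highest. In a sub-gate of maturation markers (148 cells) Ccl17 read 522, 386 and 174 CPM and Ccl22 read 153, 318 and 829.5 CPM by library. Of the Ccl22 UMIs of library 3, 286 in type 2 dendritic-like cells, 22.0% came from 1 cell of 25. Ccl6 and Ccl9, CCR1 ligands of myeloid cells, were highest in type 2 dendritic-like cells at 484 and 454 CPM, but for Ccl6 the interval (464 to 505) overlapped that of macrophage-like cells at 476 CPM. Ccl6 read 428, 262 and 1093 CPM by library in type 2 dendritic-like cells and had no stable highest class: it was macrophage-like in library 1, neutrophil-like in library 2 and type 2 dendritic-like in library 3, and 5 alternatives made it macrophage-like, leaving out library 3 among them (413 against 336 CPM). Ccl9 read 386, 274 and 989.95 CPM by library. Both were highest in library 3, where the 12 monocyte markers summed to 3034 CPM in this class against 838 and 573 CPM in libraries 1 and 2, with Chil3 at 0 and 6 of 12 highest in library 3. These markers are not particular to monocytes: their sum was 3353 CPM in fibroblast-like cells, and in 11 of 12 classes with a value in each library it was highest in library 3. In a sub-gate of monocyte markers (86 cells, 70 of them in library 3) Ccl6 read 2049 CPM. The part of these cells in the library values was not tested.

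Stromal, endothelial and mesothelial classes were the highest for 8 ligands, Cxcl1 among them. Ccl11 (eotaxin 1, an eosinophil attractant) was highest in fibroblast-like cells at 1255 CPM (1239 to 1271), with 1949, 1752 and 491 CPM by library, and pericyte-like cells held 444 CPM. Cxcl12, which retains CXCR4-bearing cells in tissue, was highest in the same class at 459 CPM, with 266, 262 and 702 CPM. Library 3 was thus lowest for Ccl11 and highest for Cxcl12, and the sub-gates differed as well. Ccl11 read 2151 CPM in a sub-gate of Postn-list markers and 235 CPM in one of Smoc2-list markers, while Cxcl12 read 206 CPM in the first and 755 CPM in the second; a sub-gate of Inmt-list markers held 730.1 CPM of Ccl11 and 766 CPM of Cxcl12. Within each of the 4 sub-gates, the adventitial one included, Ccl11 was lowest and Cxcl12 highest in library 3. Cxcl14 was also fibroblast-like, at 72.0 CPM and at 171 CPM in the Smoc2-list sub-gate. Blood endothelial-like cells followed for Cxcl12 at 205 CPM, with 274 CPM in capillary-marker and 25.8 CPM in venous-marker cells.

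Ccl21a, which guides CCR7-bearing cells into lymphatic vessels, was found in lymphatic endothelial-like cells at 2096 CPM (2015 to 2181), 154 times the next class. Library 3, with 179 of the 215 such cells, gave 1662 CPM, and libraries 1 and 2 had 19 and 17 cells and no value of their own. The other CCR7 ligand, Ccl19, reached 24.7 CPM in pericyte-like cells. Cx3cl1, a membrane-bound ligand of CX3CR1, was spread over blood endothelial-like cells at 75.0 CPM and epithelial-like cells at 59.9 CPM. Ccl27a was at most 24.9 CPM (mesothelial-like) and Ccl25 at most 13.6 CPM (neutrophil-like), each with overlapping intervals between leading classes.

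Cxcl10, a ligand of CXCR3 that interferons induce, had a broad spread. Plasma-like cells, which secrete antibody, were highest at 575 CPM (527 to 626), with 645 and 418 CPM from libraries 2 and 3. Pericyte-like cells followed at 221 CPM (319, 99.1 and 37.7 CPM by library), then fibroblast-like cells at 182 CPM, and 12 classes reached 10 CPM. Venous-marker cells read 387 CPM. Plasma-like cells numbered 76, and without library 2 too few were left to rank, so that pericyte-like cells led at 258 CPM. With the Schwann and glia-like class ranked too (70 cells, under the 100000 UMI minimum), that class led at 578 CPM. Its promoter is printed for a match to the letters GAAANNGAA, a core of interferon-response sites, which were found on either strand in 8 of 38 member genes, Cxcl9 among them, and in 8.56% of all promoters.
Cxcl10: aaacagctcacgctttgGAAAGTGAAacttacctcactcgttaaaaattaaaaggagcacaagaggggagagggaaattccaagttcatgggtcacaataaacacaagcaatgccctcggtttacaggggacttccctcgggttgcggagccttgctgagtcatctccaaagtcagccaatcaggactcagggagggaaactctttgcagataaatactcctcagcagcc
The window, chr5:92348890-92349119 on the minus strand of GRCm38.p6 (RefSeq), holds the match, in capitals, 213 bases before the start. Cxcl10 is also among the 11 member genes with the NF-kappaB consensus, and its matches to that consensus in this window are left in lower case.

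Epithelial-like cells were the highest class for 4 ligands, and these shared a compartment. Besides Cxcl5 they were Ccl20, the ligand of CCR6, at 61.8 CPM (70.2, 72.8 and 15.9 CPM by library), Ccl28, a mucosal ligand of CCR10, at 39.1 CPM (36.85, 38.9 and 43.4 CPM), and Cxcl17, a mucosal chemokine, at 14.4 CPM. Epithelial-like cells were split by a list led by Lcn2, Pigr and Ltf, secretory and antimicrobial genes (3734 cells), and a list led by Aqp1, Slc10a2 and Cftr, transport genes (5633 cells). Each of the 4 ligands was higher in the Lcn2-list cells: Cxcl5 at 848 against 33.6 CPM, Ccl20 at 139 against 14.3 CPM, Ccl28 at 69.3 against 20.2 CPM and Cxcl17 at 26.4 against 7.01 CPM. The same order held in each library. Both sub-gates had similar depth, with medians of 13529 and 13503 UMIs. Lcn2-list cells made up 738, 2676 and 320 cells in libraries 1, 2 and 3. Within them Cxcl5 still read 840.1, 951 and 252 CPM, and Ccl20 134, 158 and 44.1 CPM, so both were lowest in library 3, while Ccl28 was highest there at 96.4 CPM.

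**Figure D3:**
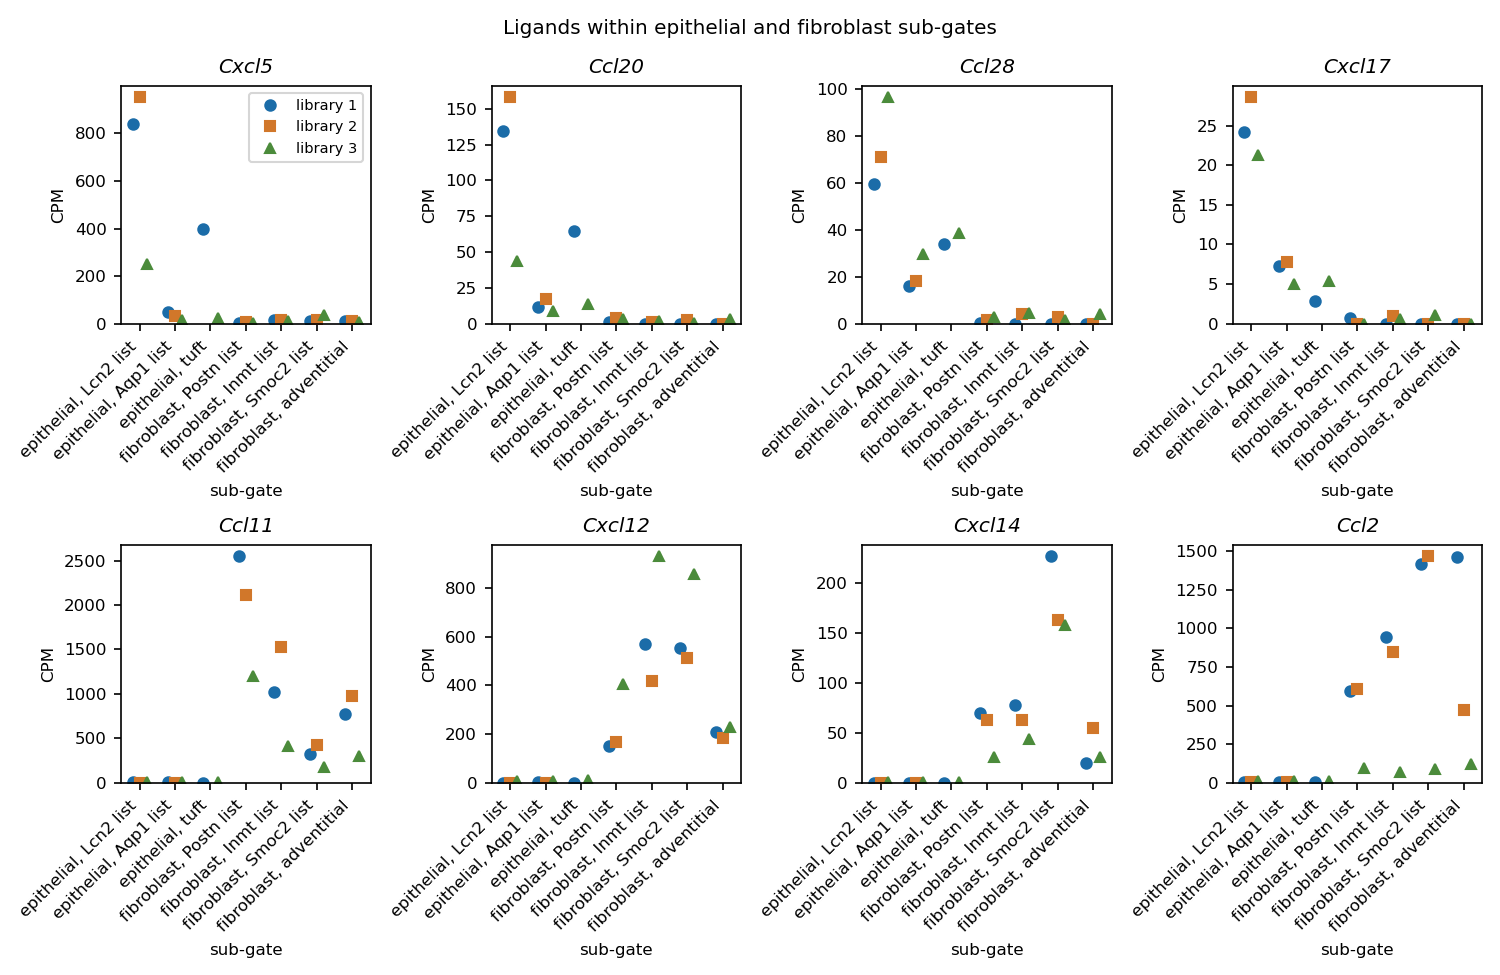
CPM of 8 ligands (panels, linear axes from 0) in 3 epithelial and 4 fibroblast sub-gates, with 1 point for each library holding at least 20 cells. Cxcl5, Ccl20, Ccl28 and Cxcl17 are highest in the Lcn2-list cells, Ccl11 in Postn-list cells and Cxcl12 in Inmt-list and Smoc2-list cells.

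Receptors were carried by leukocytes. The receptor sum was at most 147 CPM in any of the 7 epithelial, stromal, endothelial and mesothelial classes, where Cxcr4 was the leading receptor, and between 318 CPM (plasma-like) and 3474 CPM (neutrophil-like) in the leukocyte classes. In the pooled data all 18 receptors had their highest class among leukocytes. The share of all genes with a leukocyte class highest was not computed, so this count is a description.

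**Figure D4:**
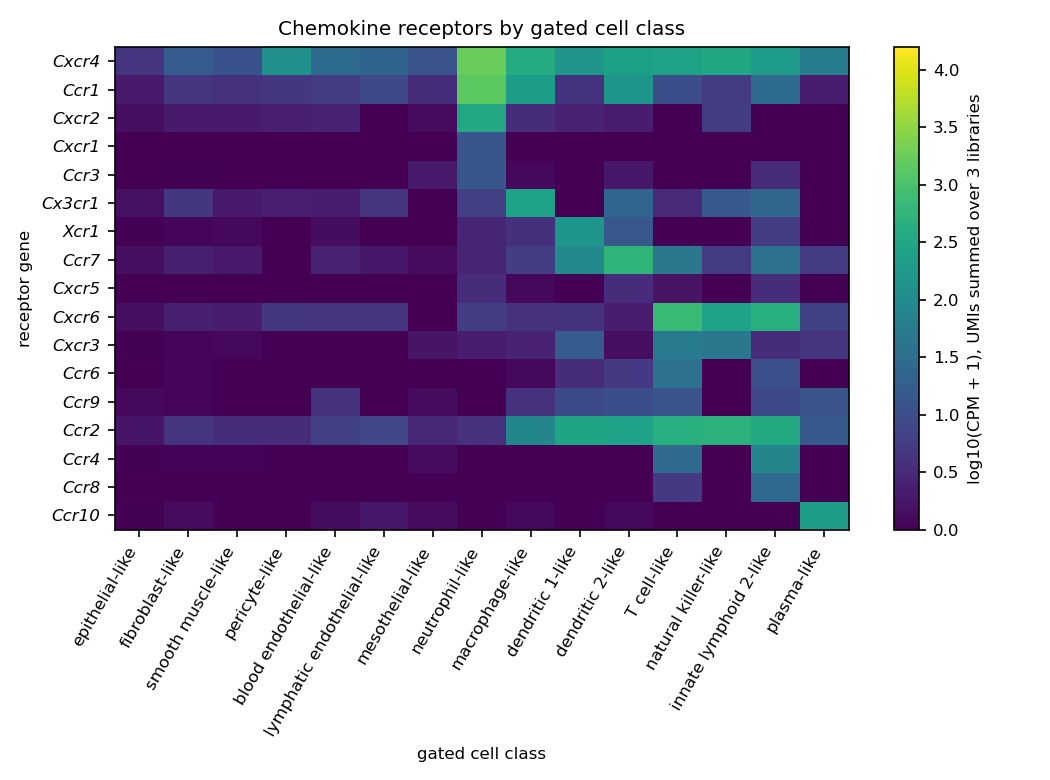
Heat map of 17 receptors (rows) in the 15 ranked classes (columns), coloured by log10(CPM + 1) of UMIs summed over the 3 libraries. Neutrophil-like cells are brightest for Cxcr4 and Ccr1, at 1712 and 1369.8 CPM, and Ccr10 stands in the plasma-like column alone at 217 CPM.

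Neutrophil-like cells were highest for 5 receptors. Cxcr4, the CXCL12 receptor that marks aged or retained neutrophils, stood at 1712 CPM (1650.2 to 1775), with 1677, 1377 and 2662 CPM by library. Ccr1 stood at 1369.8 CPM, with 1744, 1149.6 and 805 CPM, and Cxcr2 at 339.8 CPM (313 to 369), with 386, 293 and 319.8 CPM. Library 3 was thus highest for Cxcr4 and lowest for Ccr1. Its neutrophil-like cells, which formed a cluster of their own, held 19268 CPM of the 11 neutrophil markers against 43331 and 44981 CPM in libraries 1 and 2, with none at 0, and 5209 CPM of the 12 monocyte markers against 1144 and 1168 CPM, with Cd300e at 0 and 7 of 12 highest in library 3. In the same cells the 11 fibroblast markers summed to 628, 487 and 3260 CPM by library and the 11 smooth muscle markers to 215, 208 and 971 CPM, each of these markers highest in library 3 and none at 0. The part of these differences in the values of Cxcr4, Ccr1 and Cxcl2 was not tested. Cxcr2 was seen in 28.8% of neutrophil-like cells (median depth 1084 UMIs) and in 0.671% of epithelial-like cells (13378 UMIs), which should lack it. At 1000 UMIs per cell the shares were 25.6% of 730 cells and 0.0426% of 9554 cells. Cxcr1 and Ccr3, the eotaxin receptor, were each at 12.4 CPM in neutrophil-like cells.

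In T cell-like and type 2 innate lymphoid-like cells the leading receptor was Cxcr6, which holds resident lymphocytes in tissue. It read 663 CPM (635 to 693) in T cell-like cells, with 569, 691 and 895 CPM by library, 462 CPM in type 2 innate lymphoid-like cells and 269 CPM in natural killer-like cells. A T cell sub-gate of IL-17 and gamma delta markers (151 cells) held 1014 CPM, with 997, 967 and 1425 CPM, against 593.5 CPM in CD4-marker and 205 CPM in CD8-marker cells. Ccr2, the receptor of CCL2, was found in 3 lymphoid classes at near levels: 501 CPM in natural killer-like cells (411 to 603), with 397 and 826 CPM from libraries 2 and 3, 435 CPM in T cell-like cells and 372 CPM in type 2 innate lymphoid-like cells, and the first 2 intervals overlapped. The IL-17 sub-gate held 938 CPM of Ccr2 (1226, 719.8 and 1069 CPM by library) and the monocyte sub-gate 829 CPM. Without library 2 T cell-like cells led for Ccr2 at 484 CPM, and with clusters in place of gates T cells led at 434 CPM.

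Several lymphoid receptors were lower. Cxcr3 read 52.9 CPM in T cell-like and 45.5 CPM in natural killer-like cells, with overlapping intervals. Ccr6, the CCL20 receptor, read 35.5 CPM in T cell-like cells and 66.3 CPM in CD4-marker cells. Ccr4 and Ccr8, receptors of type 2 immunity, were highest in type 2 innate lymphoid-like cells at 80.1 and 25.9 CPM. The Ccr8 value (12.9 to 46.4) rests on 11 UMIs in 10 cells, and library 3 held 0 UMIs of Ccr8. Ccr9, a gut-homing receptor, reached 11.7 CPM in T cell-like cells, which held 21.2% of its UMIs in gated cells. Plasma-like cells held 10.99 CPM of it, with overlapping intervals. By library it was highest in T cell-like, blood endothelial-like and type 2 innate lymphoid-like cells, so it had no stable highest class. T cell-like cells of library 3 held 0 CPM of Ccr9. Ccr10, which homes antibody-secreting cells to mucosa, was in plasma-like cells at 217 CPM (187 to 249), with 249.9 and 221 CPM from libraries 2 and 3, and in 75.0% of their cells (median depth 11000.5 UMIs) against 0.0723% of epithelial-like cells. Lymphatic endothelial-like cells, the next class, held 0.844 CPM of it. Cxcr5, the follicular receptor, was at most 2.46 CPM in any class.

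Among antigen-presenting classes, Ccr7, which takes mature dendritic cells to lymph nodes, stood at 555 CPM in type 2 dendritic-like cells, with 634, 671 and 145 CPM by library. In the maturation-marker sub-gate it read 872 CPM (1067, 1032 and 411 CPM), so library 3 was lowest in both sets of cells. The maturation markers themselves summed to 2399 CPM in the type 2 dendritic-like cells of library 3 against 1094 and 1004 CPM in libraries 1 and 2. These markers are not particular to dendritic cells: in macrophage-like cells they summed to 1140, 1004 and 2424 CPM. Their sum was highest in library 3 in 9 of 12 classes with a value in each library. Their part in the Ccr7 values was not tested. Xcr1, the receptor of XCL1, was confined to neither dendritic class but was 12.6 times higher in type 1 than in type 2 dendritic-like cells, at 163 CPM (141 to 187), with 159, 141 and 182 CPM by library. Cx3cr1, a receptor of resident macrophages and microglia, stood at 276 CPM in macrophage-like cells, with 316, 221 and 221 CPM, and library 1 read 290.1 CPM without the microglia-marker cluster.

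**Figure D5:**
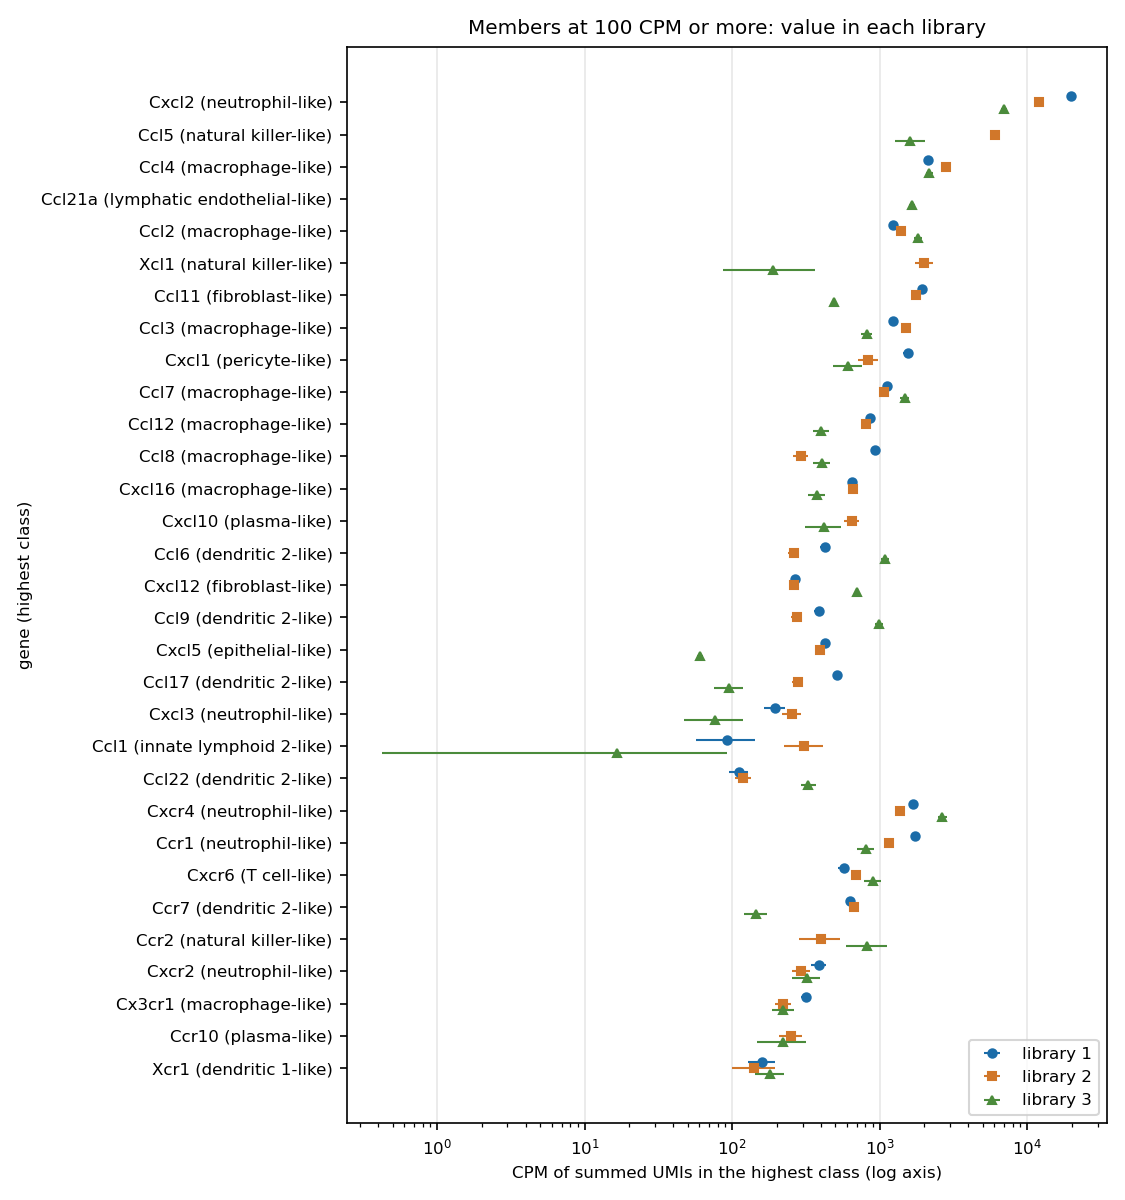
CPM in the highest class (log axis) of 31 members that reached 100 CPM, ligands above receptors, with 1 point for each library holding at least 20 cells of the class and bars for exact Poisson 95% intervals. Library 3 lies lowest for Cxcl5, Xcl1, Ccl17 and Ccr7 and highest for Ccl6, Ccl9, Cxcl12 and Cxcr4.

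In 27 of 30 pairs of a ligand and a textbook receptor the highest classes differed. The share among pairs of unrelated genes was not computed, so this count is a description. The 3 exceptions were Cxcl2 and Cxcl3 with Cxcr2 in neutrophil-like cells and Ccl1 with Ccr8 in type 2 innate lymphoid-like cells. The last of these rests on 11 UMIs of Ccr8. Cxcl5 and Cxcr2 joined epithelial-like to neutrophil-like cells; epithelial-like cells held 0.412 CPM of the receptor. Cxcl12 and Cxcr4 joined fibroblast-like to neutrophil-like cells, which held 10.6 CPM of the ligand. Cxcl16 and Cxcr6 joined macrophage-like to T cell-like cells, and Xcl1 and Xcr1 natural killer-like to type 1 dendritic-like cells, with 0 CPM of the other partner on each side. Ccl28 and Ccr10 joined epithelial-like to plasma-like cells, and Ccl21a and Ccr7 lymphatic endothelial-like to type 2 dendritic-like cells. These pairs set transcript levels side by side; contact or signalling was not measured.

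Gene neighbours were not all highest in the same class, and the share among other neighbouring genes was not computed. On chromosome 11 (82035571 to 82305690) Ccl2, Ccl7, Ccl12 and Ccl8 were macrophage-like, Ccl11 between Ccl7 and Ccl12 was fibroblast-like, and Ccl1 was type 2 innate lymphoid-like. Further along (83525778 to 83664683) Ccl5 was natural killer-like, Ccl9 and Ccl6 type 2 dendritic-like, and Ccl3 and Ccl4 macrophage-like. On chromosome 9 (123678439 to 124113557) 6 receptors had their highest levels in 4 classes: Ccr9 and Cxcr6 in T cell-like, Xcr1 in type 1 dendritic-like, Ccr1 and Ccr3 in neutrophil-like, and Ccr2 in natural killer-like cells. These coordinates are of GRCm38, from the GENCODE M21 annotation. The classes named are those of the pooled data, and not all of them were stable. For Ccl6, Ccr9, Ccr3 and Ccr2 the intervals of both leading classes overlapped. For Ccl1, Ccl3, Ccl6, Ccr9 and Ccr2 the highest class was not the same in each library with a value.

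Within a class, many members differed between libraries. Of 125 pairs of a member and a class at 50 CPM or more, 81 (64.8%) differed at least 2-fold between the highest and the lowest library, against 36.5% of 40306 such pairs over all genes. Ligands gave 67 of 91 pairs and receptors 14 of 34. At 4-fold the share was 42 of 125 against 7.22%. The highest library was library 1 in 31 pairs, library 2 in 17 and library 3 in 33, so no library led throughout. Without library 3, whose cells were shallower and often from other clusters, 19 of 102 pairs differed 2-fold, against 3.57% of all pairs. In 5 of the 81 pairs over 50% of the UMIs of the highest library lay in 1 cell, as for Ccl5 in blood endothelial-like cells, where 1 cell held 90.9% of them.

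Differences in well-filled classes ran both ways. Cxcl5 in epithelial-like cells differed 7.04-fold, Ccl2 in fibroblast-like cells 8.97-fold, Xcl1 in T cell-like cells 19.6-fold, Cxcl10 in fibroblast-like cells 6.16-fold and Ccl17 in type 2 dendritic-like cells 5.44-fold, each lowest in library 3. The Xcl1 value of library 3, 20.3 CPM, rests on few UMIs, as that library held 41 Xcl1 UMIs over all its barcodes. Highest in library 3 were Ccl7 in type 2 dendritic-like cells, with 28.6, 22.1 and 253.5 CPM, Ccr2 in the same cells, with 215, 130.0 and 681 CPM, and Ccl9 in macrophage-like cells, with 283, 159.5 and 721 CPM. Marker lists of other cells moved the same way. In type 2 dendritic-like cells the 12 macrophage markers summed to 1524, 1122 and 2423 CPM by library, 9 of 12 highest in library 3, and the 11 fibroblast markers to 256, 189 and 1113 CPM, all highest in library 3, with none at 0 in either list. In macrophage-like cells the 12 monocyte markers summed to 746, 505 and 2345 CPM, with Chil3 at 0 and 8 of 12 highest in library 3. The 11 fibroblast markers summed there to 216, 165 and 1668 CPM and the 11 smooth muscle markers to 117, 94.8 and 633 CPM, each highest in library 3 and none at 0. The part of these lists in the results was not tested. Cxcl2 in type 2 innate lymphoid-like cells was highest in library 2, with 213, 1721 and 66.7 CPM. There 256 UMIs lay in 24 cells, and the 11 neutrophil markers summed to 338, 343 and 683 CPM by library, with Retnlg at 0 and 4, 3 and 3 of them highest in libraries 1, 2 and 3; their part was not tested. Ccl7 in the same class, 367 CPM in library 3, had 72.7% of its 22 UMIs in 1 cell. Mast cell markers in this class summed to 278, 1761 and 6334 CPM, with all 9 highest in library 3, and without cells of 4 or more such markers the pooled Ccl7 level was 19.2 CPM in place of 56.5 CPM.

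Genes around the chemokine system were taken from 6 lists. Of 7 atypical receptors and scavengers, which take up chemokines or present them without G protein signalling, 2 had the same highest class in each library and 1 was at least 4-fold over the next class, beside 31.2% and 4.25% of all genes, shares that bear on each list below. With so few genes these counts are a description. Ackr2 (64.1 CPM) and Ackr3 (459.8 CPM) were highest in lymphatic endothelial-like cells, Ackr1 in blood endothelial-like cells at 88.7 CPM (165, 141 and 14.1 CPM by library), and Ccrl2 in neutrophil-like cells at 1627 CPM. Of 4 chemokines with other symbols, 2 kept their class and 1 passed 4-fold, the platelet factor gene Pf4 in macrophage-like cells at 1077 CPM. Of 11 inducers of chemokine genes, 10 kept their class and 3 passed 4-fold: Il17f in T cell-like cells at 77.4 CPM, and Il13 and Csf2 in type 2 innate lymphoid-like cells at 304 and 476 CPM. Il1b stood with Cxcl2 in neutrophil-like cells at 12039 CPM, Il6 with Cxcl1 in pericyte-like cells at 1606 CPM, Tnf in macrophage-like cells at 326 CPM, and Il17a in T cell-like cells at 518 CPM.

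Of the 13 transcription factors and feedback genes, 6 kept their class and none passed 4-fold, beside 4.25% of all genes. Nfkbia, the NF-kappaB inhibitor that NF-kappaB itself induces, was highest in neutrophil-like cells at 3169 CPM. Of 15 receptor signal relay genes, 4 kept their class and none passed 4-fold. Of 7 proteases that trim chemokines, 5 reached 20 UMIs, 4 kept their class and 2 passed 4-fold, Mmp8 in neutrophil-like cells at 50.2 CPM and Mmp2 in fibroblast-like cells at 688 CPM. Dpp4, which cuts the ends of CXCL10 and CXCL12, was highest in mesothelial-like cells at 589.6 CPM. The median ratio of highest to next class was 1.32 for the transcription factors and 1.22 for the relay genes, near the 1.31 of all genes.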

How the data were processed

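Single cells of 3 gallbladder pools were measured by droplet 3′ RNA sequencing. The deposited matrix holds raw UMI counts. Per the file headers, the authors used Cell Ranger 6.1.1, and per the submitters' processing notes the build was GRCm38 (mm10); the annotation version is not given in the sources used here. Barcodes under 300 genes or above 20% mitochondrial UMIs were dropped, and 1024 doublets were removed (Scrublet in scanpy 1.11.5, score above 0.25). A cell entered a class with at least 3 of its markers detected and a score of at least 0.4 relative to that class, within 1 cell family; 502 cells in several families and 1678 in none were left out, and 549 lay within 0.05 of the limit. The markers contain no member gene. The scoring rule and the class minimum of 100000 UMIs were set after the data were seen, and the members and lists were chosen with earlier results of these data known. Sub-gates needed 2 markers, or 3 for those of tuft, monocyte and maturation markers. The monocyte and maturation sub-gates also needed a relative score of at least 0.5, and the other sub-gates 0.4. Clusters were Leiden clusters at resolution 1.0. Counts were summed per class and library and scaled to CPM; no group or library was tested. For members at 100 CPM or more each library's value is given where it exists, the others by their level. Shares of cells compared across depths were thinned to 1000 UMIs. The summing was tested on simulated data. Alternatives changed filters, gates, weights, folds and left out each library. Those on the gate score limit, the microglia-marker cluster, the Schwann and glia class and the mast-marker cells were chosen after seeing the data. Values of 1 member are not reported here.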

Additional observations from a re-analysis of the deposited data

Results flagged for a closer look

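Signals stood above the limit that a count of 0 allows in cells that the comparisons do not use. In the 1678 kept cells that passed no gate (limit 1.34 CPM) Cxcl2 read 2183 CPM and Cxcr4 read 639 CPM. In the 26 of these cells with at least 4 of 9 mast cell markers (median 976 UMIs, limit 82.1 CPM), Ccl2 read 1559.6 CPM (57 UMIs, 1181 to 2021) and Ccl7 read 1149 CPM. Another 6 such cells, 3 of them in the type 2 innate lymphoid gate, are not among these.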

How the results depend on the processing

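No paired analysis was possible because each group has 1 sample and libraries are not tied to groups. The number of members with 1 stable highest class ranged from 19 to 24 ligands and from 11 to 14 receptors over 13 alternatives each. The number at least 4-fold over the next class, 10, became 16 without library 2 and 17 without library 3, and 22 and 5 at limits of 2-fold and 8-fold; fewer libraries leave fewer values to pass. The number of pairs that differed between libraries, 81, became 19 without library 3 and 42 at 4-fold. Over all 18 alternatives that rank classes, 34 of 51 members kept their highest class, and 719 of 895 recomputed member levels stayed within the counting interval of the reported one. Natural killer-like and plasma-like cells rest on 96 and 76 cells, and in most classes library 3 had the fewest UMIs per cell.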
